A study of Homo sapiens with 6 samples.

Results

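Hepatocytes make and secrete most of the proteins of blood plasma, and 44 of the 6357 loci in the expression table of WT and FN3K KO HepG2 cells carry the name of such a protein or of its gene family. The loci were chosen by gene name alone: apolipoproteins of the A, B, C, E, F, H and M classes, every SERPIN, fibrinogen chains and coagulation factors, complement components, inter-alpha-trypsin inhibitor heavy chains, and a set of named carriers and inhibitors such as transferrin, transthyretin, alpha-fetoprotein and plasminogen. No expression value enters the pattern of names. Other genes that the pattern covers, such as those of albumin, haptoglobin and hemopexin and further apolipoproteins, had no locus of that name in the expression table. They could not be analysed here. Only 4926 of the 6357 loci carry a gene name, so counts, sums and shares hold for the 44 named loci alone. Of the 44, 37 encode proteins known in plasma and were grouped by role, and 7 matched only through their family name: SERPINI1, SERPINB1, SERPINB6, SERPINB9, SERPINH1, SERPINE2 and ITIH5.

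HepG2 is a line from a human liver tumour that keeps much of the hepatocyte's secretory programme. The study asked which pathways are tied to FN3K (fructosamine-3-kinase, an enzyme that phosphorylates sugars bound to lysine residues so that they leave the protein). It compared 3 plates of WT HepG2 cells with 3 plates of HepG2 cells in which FN3K had been knocked out with CRISPR, with both groups grown to 70-80% confluency in EMEM with 10% FBS. The sources used here do not give how many KO clones lie behind the 3 plates or the age of the cultures, so the effect of the knockout and a difference between cell clones cannot be told apart, and p-values measure only the spread between plates. Values are FPKM, fragments per length of transcript and per mapped fragments of a library, so that levels of different genes can be set side by side per length, and libraries are given in the order of replicates 1, 2 and 3. In bulk RNA, fewer cells of a type and less RNA per cell cannot be told apart.

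FN3K had 27.7, 21.9 and 23.2 FPKM in the WT libraries and 0.782, 1.03 and 0.704 FPKM in the KO libraries. All 3 KO libraries were below all WT libraries (log2 fold change -3.78, SE 0.13, limma adjusted p = 1.1e-07). The FPKM of all loci summed to between 289983 and 314164 per library, and the read depth is unknown. Pearson correlations of log2(FPKM + 1) across the 44 loci were 0.995 to 1.00 between libraries of a group and 0.944 to 0.961 between libraries of different groups. Across all 6357 loci they were 0.980 to 0.983 and 0.923 to 0.931. These are correlations across genes, which are not independent replicates.

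Plasma proteins enter the secretory pathway through a signal peptide, are folded and glycosylated in the endoplasmic reticulum and Golgi, and leave the hepatocyte mostly without being stored. Apolipoproteins wrap the lipid of lipoprotein particles, carriers bind hormones, metals or vitamins, coagulation and complement proteins circulate as inactive precursors that are cut in cascades, and serpins trap the proteases that do the cutting. Many of these genes are driven in liver by a shared set of transcription factors, among them HNF4, forkhead (FOXA) and C/EBP proteins. Some change during inflammation, when acute phase proteins are raised and negative acute phase proteins such as transthyretin and transferrin are lowered. Alpha-fetoprotein is the main plasma protein of the fetal liver and is made again in many liver tumours.

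The plasma protein loci were more often higher than lower in FN3K KO. At a Benjamini-Hochberg adjusted p under 0.05 over all 6357 loci (limma on log2(FPKM + 1)), 26 of the 44 rose and 6 fell, which is 59.1% and 13.6%. Over all loci 21.2% rose and 36.5% fell. The median log2 fold change, KO minus WT, was 0.33 over the 44 loci, 0.37 over the 37 grouped by role and -0.14 over all loci. Of the 37, 24 rose (64.9%) and 3 fell (8.11%). A rise of more than 1 on the log2 scale together with an adjusted p under 0.05 was found for 10 of the 44 (22.7%, against 4.25% of all loci), namely TTR, APOA4, PLG, KNG1, AFP, CP, APOF, SERPINI1, APOA1 and SERPING1. A fall of that size was found by limma for 0 of the 44, against 3.19% of all loci. At an unadjusted p under 0.05 the count was 1 (GC), and with the model of Ballgown it was 0. The lowest log2 fold changes with a call were -0.95 for ITIH5 and -0.84 for SERPINE2. The FPKM ranges of WT and KO did not overlap for 34 of the 44 (77.3%, against 63.4% of all loci). For each of these 34 the exact two-sided permutation test of 3 against 3 libraries gave p = 0.10, the smallest it can give with 20 splits. Fold changes on the log2(FPKM + 1) scale understate the change of genes at low FPKM.

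A linear model with a library covariate, as in Ballgown, the package the authors used, called fewer loci. It called 14 of the 44 higher (31.8%) and 2 lower (4.55%), against 9.53% and 8.2% of all loci. The 14 were all among the 26 that limma called, and the 2 were ITIH5 and SERPINE2. The rises it did not call were those of FGA, FGB, F5, F10, F12, F13B, C2, SERPING1, AGT, SERPINA4, SERPINA11 and SERPINI1, and the falls were those of C5, C8B, SERPINA10 and SERPINH1. For FGA the log2 fold change in that model was 0.03 (adjusted p = 0.68), for FGB 0.27 (0.18) and for SERPING1 0.87 (0.089). Values also moved by over 1.5 times for AGT (0.24), SERPIND1 (0.23, still called), C8B (-0.26) and SERPINH1 (-0.05).

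**Figure D1:**
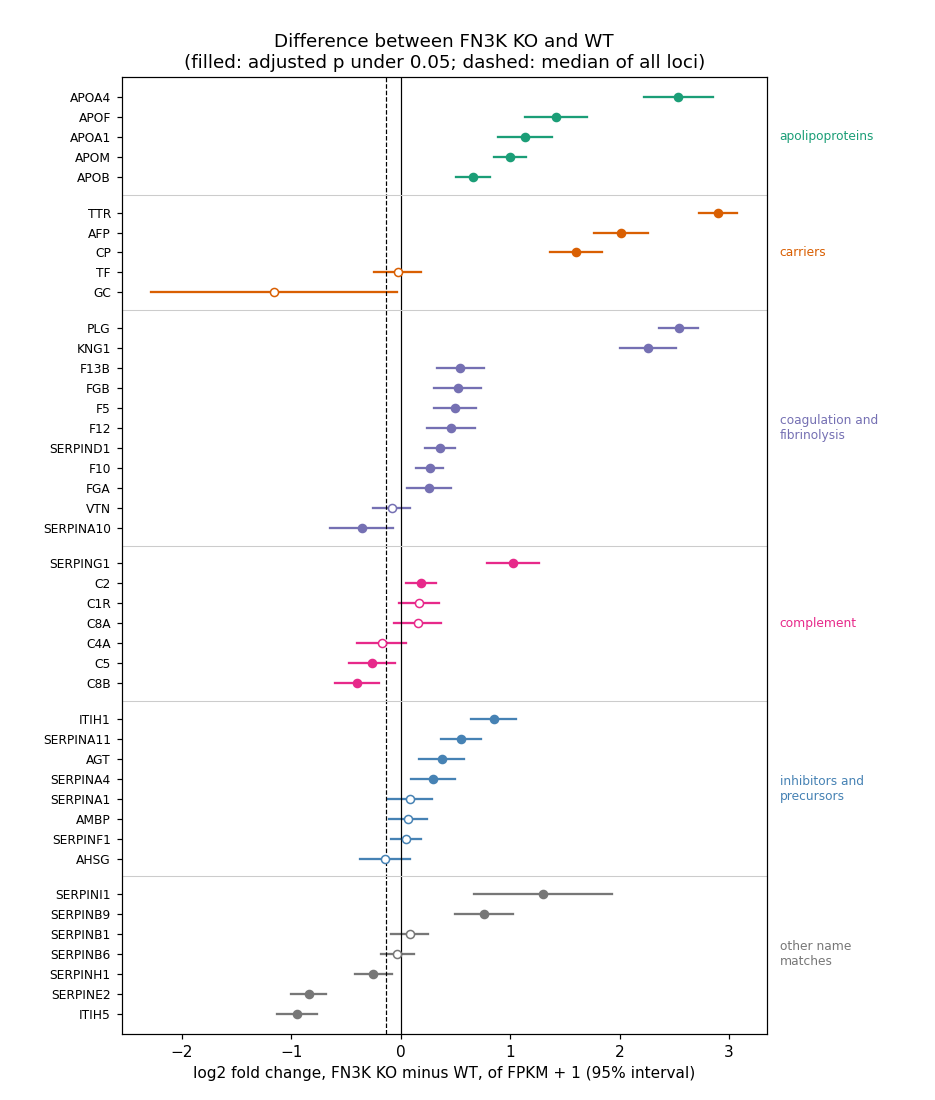
Log2 fold change of 43 of the 44 loci, FN3K KO minus WT on the log2(FPKM + 1) scale, grouped by role, with bars for the 95% confidence interval from limma, filled points for an adjusted p under 0.05 and a dashed line at the median of all loci. The 5 apolipoproteins all lie to the right of 0, TTR is highest at 2.90, and the falls with a call come no lower than -0.95.

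The proximal promoters of a few of these genes are shown because they hold the same short motif and 5 of the 6 genes with it rose, beside 59.1% of the 44. The motifs were chosen with these values known, so 5 of 6 is no test of the motif, and the 59.1% also covers loci without a promoter window. Of the 44 loci, 34 had a RefSeq promoter window of 300 bases (GRCh38.p14, 250 bases before to 50 after the start nearest to the deposited transcript's start). The letters GTTAATNAT, a motif found in liver promoters, were searched on both strands, and 6 of the 34 windows held them (17.6%), against 0.792% of 35116 windows over all genes. Those 35116 windows were not reduced to 1 per gene, while the 34 were. AFP, PLG, FGA, F13B and SERPINA4 rose and C5 fell, and the calls of FGA, SERPINA4 and C5 are lost when some libraries are left out. Upper case marks the match. Each sequence is written along its gene's strand, and the match begins 132 bases before the start in AFP, 49 in PLG, 55 in FGA, 59 in F13B and 69 in C5. A match is a description of the letters and not a bound site. The windows lie at chr4:73435971-73436270, + strand (AFP), chr6:160701994-160702293, + strand (PLG), chr4:154590693-154590992, - strand (FGA), chr1:197067211-197067510, - strand (F13B) and chr9:121050226-121050525, - strand (C5). The AFP start used lies 58 bases from that of the deposited transcript, and those of the other printed genes lie 1 to 24 bases from it. The SERPINA4 window is not printed because its start lies 351 bases from that of the deposited transcript, so it may not be the promoter of the transcript measured.
AFP: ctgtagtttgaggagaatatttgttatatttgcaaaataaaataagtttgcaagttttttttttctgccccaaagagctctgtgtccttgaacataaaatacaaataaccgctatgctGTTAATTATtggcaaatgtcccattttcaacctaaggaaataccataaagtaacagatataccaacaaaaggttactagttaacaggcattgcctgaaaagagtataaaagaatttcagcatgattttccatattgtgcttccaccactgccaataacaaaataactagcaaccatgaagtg
PLG: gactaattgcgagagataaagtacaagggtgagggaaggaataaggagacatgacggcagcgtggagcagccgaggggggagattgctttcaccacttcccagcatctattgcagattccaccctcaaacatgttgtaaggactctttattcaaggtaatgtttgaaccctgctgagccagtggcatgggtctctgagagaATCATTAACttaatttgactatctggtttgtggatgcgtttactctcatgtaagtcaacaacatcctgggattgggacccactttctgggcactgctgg
FGA: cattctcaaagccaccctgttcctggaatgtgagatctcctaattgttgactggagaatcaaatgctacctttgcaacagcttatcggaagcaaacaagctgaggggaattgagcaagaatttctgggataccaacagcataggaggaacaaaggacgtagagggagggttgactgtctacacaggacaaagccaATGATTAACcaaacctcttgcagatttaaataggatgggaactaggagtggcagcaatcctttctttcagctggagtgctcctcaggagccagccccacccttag
F13B: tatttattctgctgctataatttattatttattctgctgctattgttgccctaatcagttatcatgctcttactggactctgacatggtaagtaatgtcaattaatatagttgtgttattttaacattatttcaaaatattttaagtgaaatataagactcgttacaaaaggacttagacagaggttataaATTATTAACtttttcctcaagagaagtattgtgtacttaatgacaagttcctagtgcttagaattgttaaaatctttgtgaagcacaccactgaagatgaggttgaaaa
C5: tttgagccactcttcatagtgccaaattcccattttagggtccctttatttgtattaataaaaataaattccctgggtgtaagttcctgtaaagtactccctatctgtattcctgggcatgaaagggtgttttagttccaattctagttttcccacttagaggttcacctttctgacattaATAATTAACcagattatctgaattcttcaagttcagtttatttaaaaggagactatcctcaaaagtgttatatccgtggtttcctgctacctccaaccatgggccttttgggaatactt

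Other motifs were searched in the same windows on both strands, and no searched string contains another. TTGCNNAA, a C/EBP form, was in 9 of the 34 windows (26.5%, against 10.5% of all windows), CCAAT in 14 (41.2%, against 34.6%) and TATAAA in 4 (11.8%, against 11.5%). Of the genes with TTGCNNAA, 4 rose, 1 fell and 4 were not called. With CCAAT, 9 rose, 1 fell and 4 were not called, and with TATAAA all 4 rose. CAAAGTCCA, an HNF4 form, was in 2 (AHSG and F10, against 0.384% of all windows), and TGTTTAC, a forkhead form, in 2 (KNG1 and C8B, against 3.42%). The genes with the HNF4 or forkhead letters include risers (F10, KNG1), a gene that fell (C8B) and AHSG, which was not called. The RNA of the transcription factors themselves was measured for 8 of 10 listed. FOXA1 rose (18.4 ± 0.994 FPKM in WT and 28.9 ± 1.00 FPKM in KO, mean ± SD of 3 libraries, log2 fold change 0.63, SE 0.06, limma adjusted p = 6e-05). Of the others, NR1H4 (log2 fold change -0.62, limma adjusted p = 0.00019), HNF4A (-0.35, adjusted p = 0.00066), FOXA2 (-0.35, adjusted p = 0.0014) and CEBPA (-0.29, adjusted p = 0.0038) fell. In the Ballgown model HNF4A (adjusted p = 0.057), FOXA2 (0.092) and CEBPA (-0.15, 0.13) were not called. The summed level of the 8 was 244 to 256 FPKM in WT and 207 to 225 FPKM in KO, and its part in the plasma protein results was not tested.

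All 5 measured apolipoproteins rose in FN3K KO, with a median log2 fold change of 1.14. Their summed level went from between 2023 and 2146 FPKM in the WT libraries to between 4099 and 4634 FPKM in the KO libraries. APOA1 (chr11:116835751-116837950), the main protein of high density lipoprotein, had 1600.5, 1465 and 1482 FPKM in the WT libraries and 3135, 3154 and 3728 FPKM in the KO libraries. Every KO library exceeded every WT library by a wide margin (1516 ± 73.8 FPKM in WT and 3339 ± 337 FPKM in KO, mean ± SD of 3 libraries, 2.20-fold, log2 fold change 1.14, SE 0.11, limma adjusted p = 4.4e-05). APOB (chr2:21001429-21044073), the structural protein of very low and low density lipoproteins, had 456, 472 and 488 FPKM in the WT libraries and 761, 776 and 705 FPKM in the KO libraries. The groups did not overlap, and APOB rose 1.58-fold (log2 fold change 0.66, SE 0.07, limma adjusted p = 6.7e-05). APOA1 and APOB together made up most of the FPKM of these 5 loci in all 6 libraries.

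APOA4 lies in the same gene cluster as APOA1, at chr11:116820700-116823306, and encodes a lipoprotein component linked to triglyceride-rich particles. It had 2.73, 1.78 and 1.66 FPKM in the WT libraries and 16.8, 16.3 and 16.5 FPKM in the KO libraries, a low level with the largest log2 fold change of the apolipoproteins (log2 fold change 2.54, SE 0.14, limma adjusted p = 1.7e-06). APOF, a minor apolipoprotein that inhibits cholesteryl ester transfer, had 3.33, 2.72 and 2.57 FPKM in the WT libraries and 9.54, 9.91 and 8.56 FPKM in the KO libraries (log2 fold change 1.42, SE 0.13, limma adjusted p = 2.7e-05). APOM (chr6:31652416-31658210), the carrier of sphingosine-1-phosphate in high density lipoprotein, had 83.3, 81.6 and 86.9 FPKM in the WT libraries and 176, 155 and 176 FPKM in the KO libraries. All its KO libraries lay above the WT libraries (log2 fold change 0.997, SE 0.06, limma adjusted p = 4.7e-06). All 5 calls held in each of the 13 alternative settings, and over the fits that leave out 1 library the log2 fold change of APOB stayed between 0.63 and 0.70.

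Within a library, APOA4 amounted to 0.0017, 0.00121 and 0.00112 of APOA1 in WT and to 0.00535, 0.00516 and 0.00443 of it in KO. The ratio was higher in all 3 KO libraries than in any WT library (exact two-sided permutation p = 0.10, the smallest possible).

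**Figure D2:**
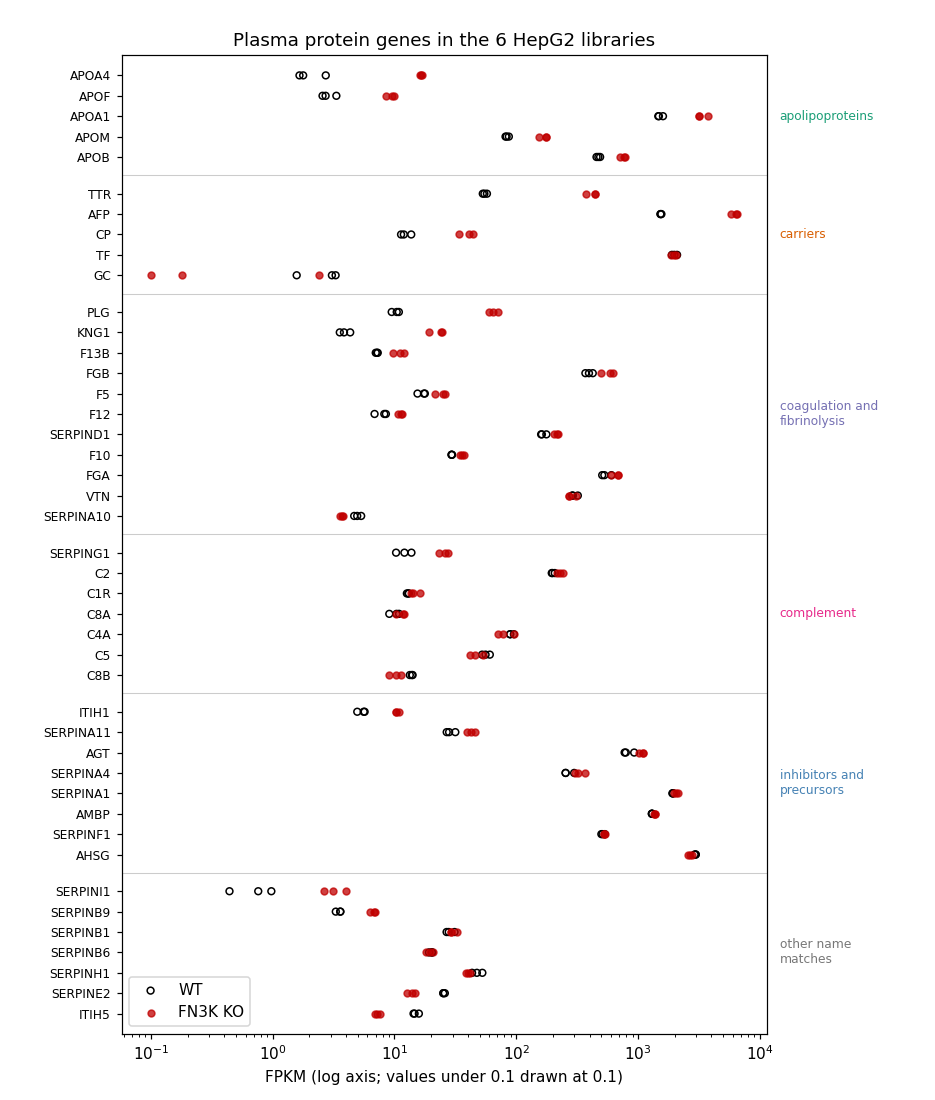
FPKM of 43 of the 44 plasma protein loci, by role, in each of the 6 libraries on a log10 axis, with an open point per WT library and a filled point per FN3K KO library, and values under 0.1 FPKM drawn at 0.1. AFP, TTR, PLG, KNG1 and APOA4 show 3 KO points far above 3 WT points, while the TF, SERPINA1 and AMBP points of the groups lie close together.

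The carriers held the largest log2 fold change of the 44 and also abundant TF, which was not called. Of 5 carriers 3 rose and 2 were not called, with a median log2 fold change of 1.60. The summed level of the carriers was 3519 to 3688 FPKM in WT and 8123 to 9045 FPKM in KO. TTR (transthyretin, which carries thyroxine and retinol-binding protein) had 57.4, 54.7 and 53.1 FPKM in the WT libraries and 439, 372 and 447 FPKM in the KO libraries. The groups were far apart (55.1 ± 2.18 FPKM in WT and 419 ± 41.3 FPKM in KO, mean ± SD of 3 libraries), and TTR rose 7.48-fold (log2 fold change 2.90, SE 0.08, limma adjusted p = 2.4e-08). AFP (alpha-fetoprotein, the fetal counterpart of albumin) at chr4:73431138-73456174 had 1554, 1527 and 1531 FPKM in the WT libraries and 6533, 5746 and 6337 FPKM in the KO libraries. In KO it was the most abundant of the 44 in every library, whereas AHSG, SERPINA1 and TF stood above it in every WT library (4.03-fold, log2 fold change 2.01, SE 0.11, limma adjusted p = 1.7e-06). CP (ceruloplasmin, the copper-carrying ferroxidase) had 11.3, 13.7 and 11.9 FPKM in the WT libraries and 40.6, 44.0 and 33.9 FPKM in the KO libraries. It rose in all 3 KO libraries (log2 fold change 1.60, SE 0.10, limma adjusted p = 4.9e-06), and the transcript listed for the CP locus is one annotated as subject to nonsense-mediated decay.

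TF (transferrin, the iron carrier) at chr3:133745956-133796640 had 1895, 2089 and 1985 FPKM in the WT libraries and 2031, 1961 and 1862 FPKM in the KO libraries. The groups overlapped, and the difference of -0.03 on the log2 scale had a 95% confidence interval of -0.24 to 0.19 (limma adjusted p = 0.81). GC (the vitamin D-binding protein) was low and uneven, with 1.57, 3.29 and 3.06 FPKM in WT and with a listed value of 0 in KO replicate 1, 0.181 FPKM in replicate 2 and 2.41 FPKM in replicate 3. Its log2 difference of -1.16 (SE 0.50, limma adjusted p = 0.072) did not pass the threshold with all libraries, but without KO replicate 3 it was -1.71 (adjusted p = 0.01), without KO replicate 1 it was -0.82 (0.19), and in a fit with a replicate block its adjusted p was 0.037. Set against TF in the same library, AFP went from 0.82, 0.731 and 0.771 in WT to 3.22, 2.93 and 3.4 in KO. TTR went from 0.0303, 0.0262 and 0.0267 of TF to 0.216, 0.19 and 0.24. Neither ratio overlapped between the groups (exact two-sided permutation p = 0.10). Each sets a gene that rose over one that was not called, so the ratios repeat the results of the single genes.

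Of 12 coagulation and fibrinolysis genes, 10 rose, 1 fell and 1 was not called, and the median log2 fold change was 0.47. Their summed level was 1471 to 1645 FPKM in WT and 1836 to 2072 FPKM in KO. The steepest rises were in genes at low to middle level. PLG (plasminogen, the precursor of the clot-dissolving protease plasmin) at chr6:160702238-160753315 had 10.9, 10.4 and 9.49 FPKM in the WT libraries and 70.1, 59.2 and 64.2 FPKM in the KO libraries. It rose 5.81-fold, and its KO libraries were all several times above its WT libraries (log2 fold change 2.54, SE 0.08, limma adjusted p = 6.7e-08). KNG1 (kininogen, the source of bradykinin and a cofactor of contact activation) at chr3:186717276-186744410 had 4.33, 3.56 and 3.85 FPKM in the WT libraries and 24.1, 19.2 and 24.4 FPKM in the KO libraries. The separation was of the same kind as for PLG (log2 fold change 2.26, SE 0.11, limma adjusted p = 1e-06).

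The fibrinogen chains were the most abundant genes of the clotting cascade. FGA, the alpha chain, at chr4:154583126-154590766 had 604, 528 and 507 FPKM in the WT libraries and 678, 600.2 and 686 FPKM in the KO libraries. The WT and KO ranges overlapped, with WT replicate 1 above KO replicate 2 (log2 fold change 0.26, SE 0.09, limma adjusted p = 0.032). That call was lost without WT replicate 2 (log2 fold change 0.24, adjusted p = 0.11), WT replicate 3 (0.21, adjusted p = 0.13), KO replicate 1 (0.23, adjusted p = 0.1) or KO replicate 3 (0.23, adjusted p = 0.09), and without the variance trend (adjusted p = 0.058). FGB, the beta chain, lies next to it at chr4:154562956-154571086 and had 424, 395 and 369 FPKM in the WT libraries and 623, 496 and 593 FPKM in the KO libraries. Its groups did not overlap (log2 fold change 0.52, SE 0.10, limma adjusted p = 0.0018). The ratio of FGB to FGA was 0.702, 0.748 and 0.728 in WT and 0.918, 0.826 and 0.864 in KO, without overlap (exact two-sided permutation p = 0.10).

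Other risers of this group were F13B (factor XIII carrier subunit), F5 (the cofactor of factor Xa), F12 (the trigger of contact activation), SERPIND1 (heparin cofactor II, a thrombin inhibitor) and F10 (the protease that makes thrombin). Their log2 fold changes ran from 0.27 for F10 to 0.54 for F13B, and none of these 5 overlapped between the groups. SERPIND1 had 177, 160.0 and 162 FPKM in the WT libraries and 219.9, 205 and 214 FPKM in the KO libraries and was the most abundant of them. VTN (vitronectin, an adhesion protein of plasma and matrix) had 320.0, 287 and 291 FPKM in the WT libraries and 271, 269.5 and 308 FPKM in the KO libraries with no call (log2 fold change -0.08, 95% confidence interval -0.25 to 0.08, limma adjusted p = 0.36). SERPINA10 (the protein Z-dependent inhibitor of factor Xa) was the gene that fell, with 4.67, 4.94 and 5.33 FPKM in the WT libraries and 3.69, 3.57 and 3.75 FPKM in the KO libraries. Its groups did not overlap (log2 fold change -0.36, SE 0.13, limma adjusted p = 0.039), but leaving out any library other than WT replicate 1 ended the call, with log2 fold changes from -0.39 to -0.31 over the 6 fits that leave out 1 library. It was also lost with a common total of the other loci (adjusted p = 0.073) and in the fit with a replicate block (0.077).

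Complement genes did not move one way. Of 7, 2 rose, 2 fell and 3 were not called, the median log2 fold change was 0.15, and the summed level was 385 to 413 FPKM in WT and 387 to 456 FPKM in KO. SERPING1 (the C1 inhibitor, which blocks C1r, C1s and kallikrein) had 13.8, 12.1 and 10.3 FPKM in the WT libraries and 23.2, 27.4 and 25.9 FPKM in the KO libraries. Of these 7 it had the highest fold, 2.04 (log2 fold change 1.03, SE 0.11, limma adjusted p = 6.1e-05). Outside the 44, the complement genes MASP2, C8G and MASP1 rose (log2 fold change 1.29, 1.26 and 0.30, limma adjusted p = 0.0011, 9.5e-05 and 0.01). In the Ballgown model C8G kept its call (adjusted p = 0.03), and MASP2 (0.061) and MASP1 (0.1) did not. C2, the protease of the classical convertase, had 207, 198 and 196 FPKM in the WT libraries and 229, 241 and 214 FPKM in the KO libraries. Its rise was small against its level (log2 fold change 0.18, SE 0.06, limma adjusted p = 0.028), and it lost the call without WT replicate 2, WT replicate 3, KO replicate 1 or KO replicate 2 (adjusted p of 0.087, 0.09, 0.075 and 0.069). It also lost it with a common total of the other loci (0.057) and without the variance trend (0.059).

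C8A and C8B encode chains of the same membrane attack component, and they lie next to each other on chromosome 1. C8A had 10.4, 9.07 and 10.9 FPKM in the WT libraries and 12, 11.7 and 10.4 FPKM in the KO libraries, with overlap and no call (log2 fold change 0.15, limma adjusted p = 0.19). C8B had 13.4, 13.9 and 14.1 FPKM in the WT libraries and 9.10, 11.3 and 10.4 FPKM in the KO libraries and fell in all 3 KO libraries (log2 fold change -0.40, SE 0.09, limma adjusted p = 0.0046). The ratio of C8A to C8B was 0.778, 0.653 and 0.774 in WT and 1.32, 1.03 and 1.00 in KO, without overlap (exact two-sided permutation p = 0.10). C5, from which the anaphylatoxin C5a and the first piece of the membrane attack complex are cut, had 60.6, 55.9 and 52.4 FPKM in the WT libraries and 46.0, 53.2 and 41.4 FPKM in the KO libraries. The WT and KO ranges overlapped slightly, and the fall (log2 fold change -0.27, SE 0.09, limma adjusted p = 0.035) was lost without WT replicate 1, WT replicate 2, KO replicate 1 or KO replicate 3 (adjusted p of 0.11, 0.082, 0.091 and 0.12). It was lost too with either scaling or without the variance trend (adjusted p from 0.065 to 0.084).

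C4A had 95.6, 89.0 and 88.8 FPKM in the WT libraries and 78.0, 95.2 and 70.7 FPKM in the KO libraries, without a call (log2 fold change -0.17, limma adjusted p = 0.16). Without KO replicate 2 it was -0.29 with an adjusted p of 0.0096, and without KO replicate 3 it was -0.08 (0.49). Its reads cannot be told apart with certainty from those of the near-identical C4B. C1R, the first protease of the classical pathway, had 12.6, 13 and 13.1 FPKM in WT and 14.1, 16.3 and 13.6 FPKM in KO (log2 fold change 0.17, limma adjusted p = 0.11), and it passed the threshold when the 75th percentile was made equal in all libraries (0.21, adjusted p = 0.032). Without KO replicate 2 it was 0.09 (adjusted p = 0.29).

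The protease inhibitors and precursors held 3 of the most abundant genes of all 44, and these 3 were not called. Of 8 genes, 4 rose and 4 were not called, with a median log2 fold change of 0.19. The summed level differed little, at 7765 to 7943 FPKM in WT and 8010 to 8148 FPKM in KO. AHSG (fetuin-A, an inhibitor of calcification) had 2912, 2975 and 2968 FPKM in the WT libraries and 2661, 2758 and 2589.8 FPKM in the KO libraries. All KO libraries were below all WT libraries, by a small amount (log2 fold change -0.15, 95% confidence interval -0.37 to 0.08, limma adjusted p = 0.24). SERPINA1 (alpha-1-antitrypsin, the main inhibitor of neutrophil elastase) had 1929, 1939 and 1912 FPKM in the WT libraries and 2118, 1971 and 2033 FPKM in the KO libraries, a difference of 0.08 on the log2 scale (interval -0.12 to 0.29, adjusted p = 0.45). AMBP (the precursor of alpha-1-microglobulin and bikunin) had 1303, 1299.8 and 1296 FPKM in the WT libraries and 1338, 1374 and 1369.9 FPKM in the KO libraries, a difference of 0.07 (interval -0.11 to 0.24, adjusted p = 0.48). For these 3 genes a change of 1 on the log2 scale in either direction lay outside the interval.

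AGT (angiotensinogen, the substrate of renin) was the most abundant of the inhibitors and precursors that rose, with 929, 776 and 792 FPKM in the WT libraries and 1025, 1096 and 1107 FPKM in the KO libraries. Its groups did not overlap (log2 fold change 0.37, SE 0.09, limma adjusted p = 0.0073). ITIH1, a heavy chain that is linked to bikunin and to hyaluronan, had 5.59, 5.69 and 4.95 FPKM in the WT libraries and 10.4, 10.4 and 10.9 FPKM in the KO libraries (log2 fold change 0.85, SE 0.09, limma adjusted p = 8.4e-05). SERPINA11, a serpin of unclear function, had 31.6, 28.1 and 26.8 FPKM in the WT libraries and 42.3, 46.1 and 39.5 FPKM in the KO libraries (log2 fold change 0.55, SE 0.08, limma adjusted p = 0.00047). SERPINA4 (kallistatin) rose with less support (299, 254 and 254 FPKM in WT, 303, 364 and 322 FPKM in KO, log2 fold change 0.29, SE 0.09, limma adjusted p = 0.021), and the call was lost without WT replicate 2, WT replicate 3 or KO replicate 2 (adjusted p of 0.081, 0.085 and 0.068) and without the variance trend (0.052). SERPINF1 (pigment epithelium-derived factor) had 533, 499.5 and 510.4 FPKM in WT and 529.9, 528 and 538 FPKM in KO (log2 fold change 0.05, limma adjusted p = 0.51). KNG1 and AHSG lie close together on chromosome 3, and KNG1 amounted to 0.00149, 0.0012 and 0.0013 of AHSG in WT against 0.00907, 0.00698 and 0.00941 in KO (exact two-sided permutation p = 0.10).

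The 7 genes that matched by family name alone were spread in both directions, with 2 higher, 3 lower and 2 not called and a median log2 fold change of -0.03. They held 3 of the 6 falls among the 44. ITIH5, a member of the heavy chain family found in many tissues, had 14.6, 14.3 and 15.9 FPKM in the WT libraries and 6.90, 7.65 and 7.24 FPKM in the KO libraries (log2 fold change -0.95, SE 0.08, limma adjusted p = 2e-05). SERPINE2 (protease nexin 1, an inhibitor of thrombin and urokinase at the cell surface) had 25.2, 25.2 and 25.9 FPKM in the WT libraries and 12.7, 13.8 and 14.8 FPKM in the KO libraries (log2 fold change -0.84, SE 0.07, limma adjusted p = 2e-05). SERPINH1 (the collagen chaperone HSP47 of the endoplasmic reticulum) had 43.4, 47.5 and 52.6 FPKM in the WT libraries and 38.4, 41.6 and 39.8 FPKM in the KO libraries (log2 fold change -0.25, SE 0.07, limma adjusted p = 0.018). In these 3 genes all KO libraries lay below all WT libraries, but the SERPINH1 call was lost without WT replicate 2, WT replicate 3, KO replicate 1 or KO replicate 3 (adjusted p of 0.052, 0.063, 0.066 and 0.051).

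SERPINI1 (neuroserpin, an inhibitor of tissue plasminogen activator) and SERPINB9 (an intracellular inhibitor of granzyme B) rose. SERPINI1 had 0.442, 0.975 and 0.761 FPKM in the WT libraries and 3.13, 2.62 and 4.03 FPKM in the KO libraries (log2 fold change 1.30, SE 0.28, limma adjusted p = 0.004), and SERPINB9 had 3.60, 3.58 and 3.30 FPKM in the WT libraries and 6.30, 6.86 and 6.74 FPKM in the KO libraries (log2 fold change 0.76, SE 0.12, limma adjusted p = 0.00062). Both stayed under 10 FPKM in all 6 libraries, and with a pseudocount of 0.1 the log2 fold change of SERPINI1 was 2.06. The intracellular serpins SERPINB1 (31.1, 27.9 and 26.8 FPKM in WT, 29.2, 32.4 and 29.2 FPKM in KO) and SERPINB6 (20.4, 19.2 and 20.3 FPKM in WT, 18.3, 19.6 and 20.7 FPKM in KO) were not called, with log2 fold changes of 0.08 and -0.03 (limma adjusted p = 0.37 and 0.7).

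**Figure D3:**
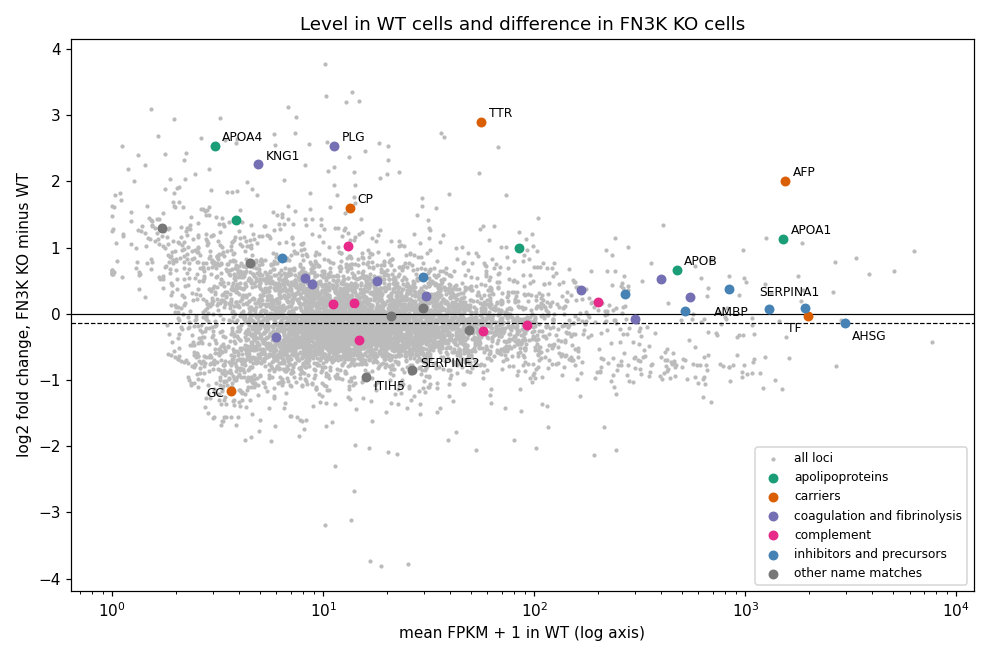
Log2 fold change, FN3K KO minus WT, against the mean WT level (FPKM + 1) on a log10 axis, with a dashed line at the median of all loci, for all loci in grey and 43 of the 44 plasma protein loci in colour by role. Of the 6 members furthest to the right, AFP and APOA1 lie above 1, and the other 4 lie between -0.15 and 0.08.

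By level, taken as the mean over all 6 libraries, the 11 members between 100 and 1000 FPKM held 9 that rose and 2 that were not called. A rise in KO itself lifts this mean. TTR (mean of 55.1 FPKM in WT) and APOM (83.9 FPKM in WT) were in this class only through their KO libraries. The share of all loci called at these levels was not computed. Of the 6 members at 1000 FPKM or more (AHSG, AFP, APOA1, SERPINA1, TF and AMBP), 2 rose and 4 were not called. The 27 members under 100 FPKM included all 6 falls, beside 15 rises and 6 without a call.

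The plasma protein loci took a larger share of all FPKM in KO. The share was 5.26%, 5.33% and 5.29% in WT replicates 1, 2 and 3 and 8.2%, 7.74% and 7.61% in the KO replicates. The groups did not overlap (exact two-sided permutation p = 0.10 for the summed FPKM). The summed FPKM of the 44 was 15580 ± 203 in WT and 23490 ± 604 in KO (SD, n = 3). AFP made up 59.0% of the difference between these means, APOA1 23.1%, TTR 4.61%, APOB 3.48% and AGT 3.08%. AFP alone was 0.517%, 0.524% and 0.526% of all FPKM in WT and 2.25%, 1.95% and 2.02% in KO. Of the FPKM of the 44 loci, AFP held 9.83%, 9.84% and 9.94% in WT and 27.5%, 25.2% and 26.5% in KO.

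Without AFP, the other 43 loci held 4.74%, 4.80% and 4.76% of all FPKM in WT and 5.94%, 5.79% and 5.59% in KO. Without AFP and APOA1, the shares were 4.21%, 4.30% and 4.26% in WT and 4.86%, 4.72% and 4.41% in KO. The ranges still did not overlap, although KO replicate 3 came close to the WT libraries. FPKM are relative to the library, and scaling the libraries to a common total of all other loci left 25 of the 44 higher and 4 lower.

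**Figure D4:**
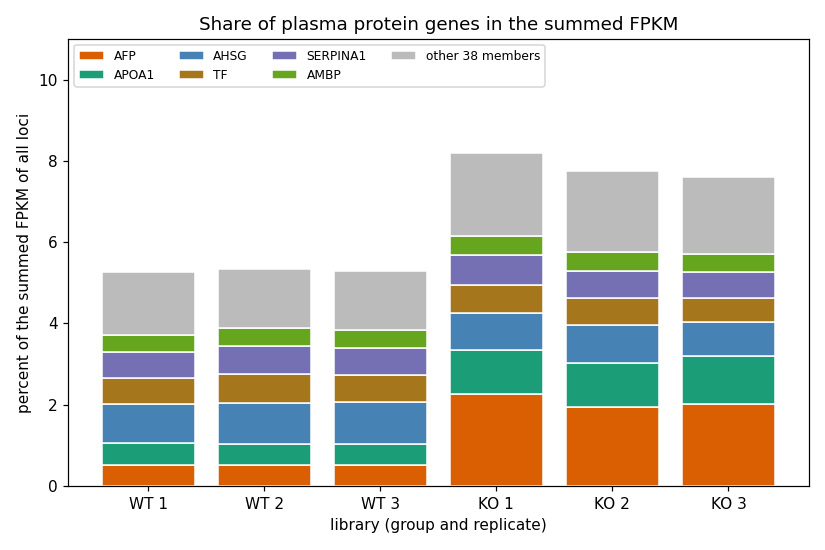
Percent of the summed FPKM of each library held by the plasma protein loci, stacked as the 6 members of the highest level and the other 38, for 3 WT and 3 FN3K KO libraries. The full bars stand at 5.26% to 5.33% in WT and 7.61% to 8.2% in KO, and the AFP section grows most.

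Other genes of the liver's secretory output, from a list of names outside the 44, were also more often higher than lower. Of 63 listed, 24 were measured, with 16 higher, 4 lower, 4 not called and a median log2 fold change of 0.45. Over all loci 21.2% rose and 36.5% fell, with a median of -0.14, which also stands beside the lists below. Of the 24, TFR2, which was not called, encodes a membrane receptor. The summed level of the 24 went the other way, from 3059 to 3628 FPKM in the WT libraries to 2137 to 2376 FPKM in the KO libraries. That fall came from IGFBP1, and the other measured genes of the list summed to more in KO than in WT. GPX3, the plasma glutathione peroxidase, had the largest rise (13 ± 0.489 FPKM in WT and 61.2 ± 3.58 FPKM in KO, mean ± SD of 3 libraries, log2 fold change 2.15, SE 0.06, limma adjusted p = 5e-08). IGFBP1, an insulin-like growth factor binding protein, had the largest fall (1805 ± 306 FPKM in WT and 390.3 ± 53.3 FPKM in KO, mean ± SD of 3 libraries, log2 fold change -2.20, SE 0.14, limma adjusted p = 4.8e-06). The mean WT level of IGFBP1 was above those of AFP, APOA1 and AMBP.

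The lists of positive and negative acute phase proteins both held rises. All measured genes of both lists but SAA4 are among the 44, and SAA4 is among the 24 measured genes of the list above, so they add no independent count. Of 28 listed positive acute phase genes 7 were measured, of which 5 rose and 2 were not called (median log2 fold change 0.52). SAA4 rose most (72.4 ± 3.85 FPKM in WT and 254 ± 20.9 FPKM in KO, mean ± SD of 3 libraries, log2 fold change 1.79, SE 0.07, limma adjusted p = 3e-07). It is the constitutive serum amyloid A protein, and not one raised in inflammation, yet the 7, the 5 rises and the median include it. The other rises were those of CP, SERPING1, FGB and FGA, of which the Ballgown model called CP alone. Of 15 listed negative acute phase genes 8 were measured, of which 5 rose and 3 were not called (median 0.80), with TTR the highest. Among 3 measured genes of interleukin-6 signalling, the inducer of the acute phase in hepatocytes, CEBPD rose (0.84, limma adjusted p = 0.00049), CEBPB fell (-0.68, adjusted p = 0.00042) and IL6ST was not called (-0.14, adjusted p = 0.097). The Ballgown model called neither CEBPD (adjusted p = 0.11) nor CEBPB (-0.44, 0.15).

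The genes that process these proteins moved in part. Of 8 measured genes of lipoprotein assembly, receptors and remodelling, 5 rose and 3 were not called (median log2 fold change 0.39), beside the 5 apolipoproteins. PLTP, LCAT and LIPC of these were already counted among the 24 measured genes of the list of secretory output. PLTP (phospholipid transfer), LCAT (cholesterol esterification), MTTP (loading of lipid onto APOB) and SAR1B (export of APOB particles from the endoplasmic reticulum) had log2 fold changes of 1.21, 0.46, 0.43 and 0.36, and of these 4 the Ballgown model called PLTP but not LCAT (adjusted p = 0.1), MTTP (0.12) or SAR1B (0.055). For the vitamin K cycle and the clotting proteins that need it, 6 were measured, with 3 higher, 2 lower and 1 not called. PROZ and PROS1 are also among those 24, and F10 is among the 44. PROZ (1.18), PROS1 (0.74) and F10 (0.27) rose, while VKORC1L1 (-0.53) and GGCX (-0.15, limma adjusted p = 0.047), the carboxylase itself, fell. The GGCX call held in 2 of the 13 alternatives, and in the Ballgown model PROS1 (adjusted p = 0.073) and VKORC1L1 (-0.31, 0.089) were not called.

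Markers of other cell types gave a mixed picture beside these results. Of 2 measured fetal liver genes both rose, AFP and DLK1 (9.44 ± 0.687 FPKM in WT and 61.8 ± 2.23 FPKM in KO, mean ± SD of 3 libraries, log2 fold change 2.59, SE 0.07, limma adjusted p = 2.4e-08). Of 4 blood cell markers only CD14 was in the table, at 0.446, 1.83 and 2.62 FPKM in WT and 14.3, 13.1 and 16.1 FPKM in KO (log2 fold change 2.65, SE 0.29, limma adjusted p = 9.5e-05), and CD14 is also made by hepatocytes. None of 3 endothelial and 5 stellate cell or fibroblast markers was measured here. Of 3 measured biliary markers KRT19 rose (38.3 ± 2.47 FPKM in WT and 137 ± 8.27 FPKM in KO, mean ± SD of 3 libraries, log2 fold change 1.81, SE 0.07, limma adjusted p = 1.8e-07), EPCAM fell (116 ± 3.54 FPKM in WT and 34.7 ± 1.52 FPKM in KO, mean ± SD of 3 libraries, log2 fold change -1.71, SE 0.05, limma adjusted p = 7.8e-08) and SOX9 was not called (-0.11), and their sum was 238 to 247 FPKM in WT and 240 to 260 FPKM in KO. The part of these marker changes in the plasma protein results was not tested.

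Overlapping gene models limit some of the values. In GENCODE version 29, 10 of the 44 genes overlap another protein-coding gene, among them TF with SRPRB, APOM with BAG6, C2 with CFB, CP with HPS3, SERPIND1 with PI4KA and VTN with SARM1. Whether the libraries keep the strand is not given in the sources used here. The SERPINB and complement C4 genes have close relatives whose reads the authors' assembly could divide between loci.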

How the data were processed

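Poly(A) RNA, captured on oligo(dT) beads, was sequenced from HepG2 plates, 3 of WT and 3 of FN3K KO. Per the labels, the authors used HISAT2 for alignment and StringTie 2.0.6 for assembly and quantification on GRCh38.p5 and analysed gene level FPKM in Ballgown; the deposited table holds FPKM for 6357 loci, and not read counts, so depth and the intervals that need it are unknown. The strand setting and the filter that gave these loci are not given in the sources used here.

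Members were the 44 loci whose gene name matched a fixed pattern, and roles, motifs and other lists were chosen with earlier results of these data known. The whole table was tested on log2(FPKM + 1) by limma 3.58.1 under R 4.3.3 (lmFit and trended eBayes), with two-sided p-values adjusted by the Benjamini-Hochberg method over all loci. Single ratios and sums were compared with exact permutation tests. The ratios are built from genes also tested singly, so they add no independent support. The script was tested on simulated data. Values in every library are given for the 3 highest members of each role, the 3 largest rises and falls at an adjusted p under 0.05, and every called member beyond 1 on the log2 scale. A few genes under this rule are counted but not reported by name. Other members named were chosen after their values were seen. From the other lists, the highest member, the largest rise and fall, and members of lists with 5 or fewer calls were named. PLTP, LCAT, LIPC, MTTP and SAR1B, PROZ, PROS1 and GGCX fall under the last case. MASP1, MASP2 and C8G were named in addition, with their values known. Same-numbered replicates did not deviate together (correlations 0.0096, 0.0061 and 0.0458), so they were not treated as pairs.

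Alternatives tried were scaling (a common 75th percentile, or a common total of the other loci), a pseudocount of 0.1 FPKM, a mean of at least 1 FPKM, no variance trend, the Ballgown model, a replicate block, and each library left out. Gene positions came from GENCODE version 29 (GRCh38; 43 of 44 transcripts matched by identifier, APOB by name), and promoters from RefSeq (GRCh38.p14). Python 3.11.15, pandas 2.3.3, numpy 2.4.6 and matplotlib 3.10.9 were used.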

Additional observations from a re-analysis of the deposited data

How the results depend on the processing

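Of the 44 plasma protein loci, 33 kept their direction and their side of the threshold in all alternatives other than the Ballgown model, among them 23 of the 26 that rose and 3 of the 6 that fell. With the Ballgown model as well, 22 did so (14 of the risers, 2 of the fallers). In the Ballgown model 14 of the 44 were higher and 2 lower, and over all loci 606 were higher and 521 lower. With 6 libraries that model fits an added library covariate and pools no variance across loci, which limits its power. The cause of its lower counts was not tested. Leaving out each library in turn gave 3 to 6 lower members, with 3 without WT replicate 2 and without KO replicate 1, and 23 to 26 higher members. With the replicate number as a replicate block, 26 were higher and 6 lower, GC passed (adjusted p = 0.037) and SERPINA10 did not (0.077). Of genes without a call, 3 changed sign. TF was 0.02 with the common 75th percentile, 0.024 with the Ballgown model and -0.063 to 0.0078 with a library left out. SERPINB6 was 0.013 with the common 75th percentile and -0.072 to 0.011 with a library left out, and SERPINF1 was -0.0027 in the Ballgown model. The median log2 fold change of the 44 stayed between 0.25 and 0.37. FPKM without counts leave the precision at low levels unknown.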
